A study of Mus musculus with 4 samples.

Results

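CXCL12-abundant reticular cells are the perivascular stromal cells of the marrow that secrete most of its CXCL12, and here they numbered 150 of the 711 stromal-sort cells that passed filters. A cell was a member when Cxcl12 made up at least 1% of its unique molecular identifiers (UMIs, each standing for 1 captured mRNA molecule) and Col2a1, the cartilage collagen gene, made up less than 1%. Members were thus selected on their measured Cxcl12 and Col2a1 counts. Cells had at least 500 genes detected and at most 10% of UMIs from mitochondrial genes, and a barcode holding more UMIs in the other stromal library was dropped. The members fell into 99 of 437 kept cells in the MSC control library and 51 of 274 in the MSC STAT5 KO library (control and STAT5 KO below).

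The study profiled mouse bone marrow with 10x Chromium 3′ (version 3) droplet libraries of single cells, 4 in all and 1 per group. Both stromal libraries, called MSC, were sorted from collagenase-digested femurs and tibias of mice aged 6 to 8 weeks as cells positive for Sca-1 and CD140a, negative for CD45 and CD71, and negative or low for Ter119. Control mice were Vav1-Cre/+ with intact STAT5ab, and STAT5 KO mice were Vav1-Cre/+ with STAT5ab floxed on both alleles, so that the Cre transgene was shared by both groups. The other libraries, called KLS, hold lineage-negative c-Kit+ Sca-1+ progenitors of the same genotypes from mice aged 8 to 12 weeks. Vav1-Cre is driven by a promoter active in blood cells, and a stromal cell of a STAT5 KO mouse is therefore a cell in a marrow whose blood lineage carries the deletion. The labels do not say how many mice gave each MSC library. With 1 library per genotype no difference between genotypes could be tested, and every interval below is a 95% interval that covers counting error only.

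Reticular cells surround the marrow sinusoids and form the main niche of hematopoietic stem and progenitor cells. Their CXCL12 holds progenitors in the marrow through the receptor CXCR4, and their membrane-bound and soluble KIT ligand (Kitl) keeps stem cells alive. They carry the leptin receptor (Lepr), adhere to blood cells through VCAM1, are maintained by the transcription factors FOXC1 and EBF3, and contain cells leaning towards fat or towards bone.

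The Cxcl12 threshold fell in a gap between members and other cells. The lowest member had 1.18% of its UMIs from Cxcl12 in control and 1.13% in STAT5 KO, and the highest cell below the threshold had 0.529% and 0.661%. Among members the share had a median of 2.78% and reached 6.25% in MSC control, and had a median of 2.45% and reached 4.01% in STAT5 KO. Outside, 119 of 338 control cells and 71 of 223 STAT5 KO cells held any Cxcl12 UMI and the median share was 0. In hemoglobin-rich barcodes of the same libraries, which should lack the gene, Cxcl12 stood at 39.6 and 15.5 counts per 1000000 UMIs (CPM), with a UMI in 4.46% of 112 barcodes and 1.20% of 83 barcodes at a median of 649 and 633 UMIs. No kept cell had both Cxcl12 and Col2a1 at 1% or more. These values chose the cells and are given as a description.

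**Figure D1:**
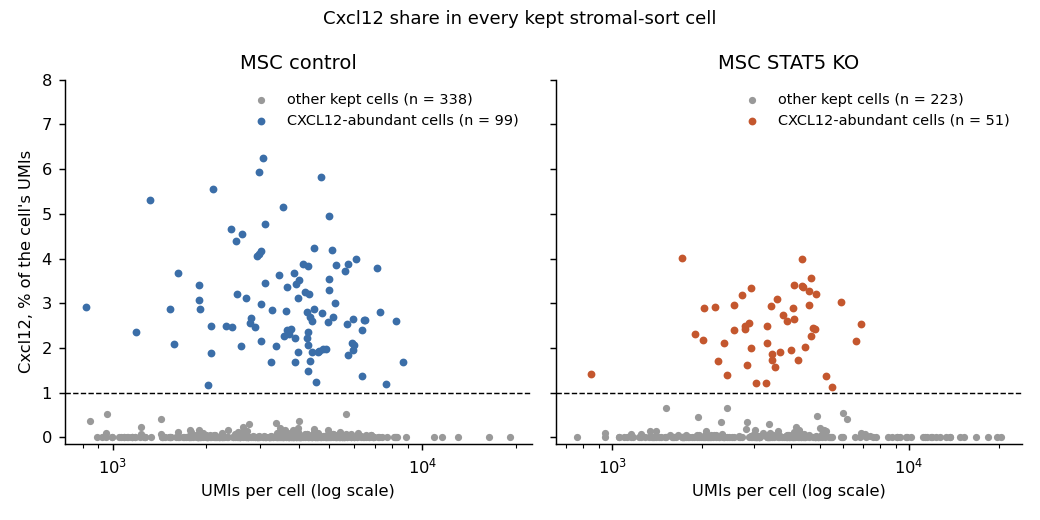
Each point is 1 kept cell, with its UMIs on the horizontal log axis and the percent of them from Cxcl12 on the vertical axis; the dashed line marks 1%. Members start at 1.18% in control and 1.13% in STAT5 KO, and no grey point is above 0.661%.

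Members made up 22.7% of kept cells in control (Clopper-Pearson interval 18.8 to 26.9%) and 18.6% in STAT5 KO (14.2 to 23.7%). These intervals overlap. The share is one of a sorted population and can be set by the gate. Depth was close: members held 3974 UMIs at the median in control and 3545 in STAT5 KO, and summed to 399645 and 185904 UMIs. They were compared with other stromal cells of the same library, meaning kept cells below both the Cxcl12 and Col2a1 thresholds, with hemoglobin genes under 10% of UMIs and no Ptprc UMI. These numbered 323 in control and 195 in STAT5 KO, with medians of 3446 and 3111 UMIs.

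Many member barcodes also occurred in other libraries of the series. Of the 99 control members, 54 had a barcode also seen in KLS control, 31 in KLS STAT5 KO and 1 in STAT5 KO. Over all 672 barcodes of the MSC control library, the same counts were 227, 158 and 42. Of the 51 STAT5 KO members, 39 were also in KLS control, 31 in KLS STAT5 KO and 2 in MSC control. Over all 425 barcodes of the MSC STAT5 KO library, the same counts were 197, 168 and 42. In the KLS libraries the shared member barcodes held a median of 596 to 735 UMIs, against 4073 to 5730 in the MSC library. Cxcl12 took 2.12 to 2.79% of their UMIs in the KLS libraries. Only 1 member, a control cell, was larger in another library than in its own. Dropping every barcode seen in any other library left 44 control and 12 STAT5 KO members. This took out deeper cells: members also in KLS control held medians of 4822.5 UMIs in control and 4073 in STAT5 KO. Over all members the medians were 3974 and 3545. Values without the shared cells, on the log2(CPM + 10) scale, are given beside most gene lists and many of the named genes.

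The label held against markers that the rule did not use. Kitl stood at 1692 CPM in control members (interval 1566 to 1824) and at 1856 CPM in STAT5 KO members (1665 to 2062), against 31.9 and 28.0 CPM in other stromal cells. Lepr stood at 1739 and 1549 CPM in members, against 125 and 146 CPM in other stromal cells. Vcam1 stood at 1596 and 1813 CPM, against 44.0 and 51.3 CPM. All 3 were higher in members in both libraries, by a log2 ratio of CPM of 5.73 and 6.05 for Kitl, 3.80 and 3.41 for Lepr and 5.18 and 5.14 for Vcam1 in control and STAT5 KO. In cells thinned to 2000 UMIs each, which left out 9 control and 3 STAT5 KO members, Kitl was found in 94.4% of 90 control and 95.8% of 48 STAT5 KO members and in 4.62% and 3.38% of other stromal cells; without thinning the shares were 98.0% and 98.0% against 8.36% and 4.62%. In the GENCODE M21 annotation of GRCm38, Cxcl12 lies on chromosome 6 (117168535 to 117181367, plus strand), Kitl on chromosome 10 (100015630 to 100100416, plus), Lepr on chromosome 4 (101717404 to 101815352, plus) and Vcam1 on chromosome 3 (116109949 to 116129688, minus); all 4 are protein-coding.

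Of the 2 positive markers of the sort, members carried the transcript of CD140a at the level of the other stromal cells and nearly none of Sca-1. Pdgfra, which encodes CD140a, stood at 345 CPM in control members and 301 CPM in STAT5 KO members, near the 320 and 357 CPM of other stromal cells. Ly6a, which encodes Sca-1, stood at 7.51 CPM (3 UMIs) and 10.8 CPM (2 UMIs) in members, against 915 and 752 CPM in other stromal cells. In thinned cells Ly6a was found in 2.22% and 2.08% of members and in 45.4% and 37.8% of other stromal cells; without thinning the shares were 3.03% and 1.96% against 42.4% and 43.6%. Ptprc, which encodes CD45, had 0 UMIs in members, which allows up to 7.51 CPM in control members and 16.1 CPM in STAT5 KO.

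Markers of other cell types were at low levels in members, though not always below those in other stromal cells. The 16 leukocyte markers summed to 110 CPM in control members and 86.1 CPM in STAT5 KO, against 8170 and 3098 CPM in other stromal cells. This list includes immunoglobulin genes, which made up at least 1% of UMIs in 4 of 323 control and 3 of 195 STAT5 KO other stromal cells. Ptprc, Laptm5, Cd52, Lyz2, Cd79b and Ighm were at 0 in members of both libraries. The 12 erythroid markers summed to 275 and 221 CPM, above the 160 and 199 CPM of other stromal cells, almost all of it from hemoglobin genes, with Klf1 and Gata1 at 0. The 8 endothelial markers summed to 60.1 and 124 CPM, above the 47.5 and 48.1 CPM of other stromal cells, most of it from Pecam1, with Kdr, Tek and Cldn5 at 0. The chondrocyte markers were summed without Col2a1, which was under 1% by rule in members and other stromal cells alike. Sox9 and Comp carried most of their 383 and 323 CPM in members, against 6674 and 12751 CPM in other stromal cells. Col9a1, Matn1, Matn3, Ucma and Col10a1 were at 0 in members. Mylk and Notch3 carried most of the 621 and 586 CPM of 8 pericyte and smooth muscle markers, against 853 and 593 CPM in other stromal cells, while Myh11, Cspg4 and Kcnj8 were at 0. The 12 fibroblast markers summed to 1651 and 2012 CPM, against 47910 and 46383 CPM in other stromal cells, and Dpt was at 0.

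Against other stromal cells, 462 of 6514 genes were at least 2-fold higher in members in both libraries (7.09%) and 505 were at least 2-fold lower (7.75%). These counts use log2(CPM + 10), which understates ratios of low genes. They were 187 and 307 without the shared cells. Genes are ordered below by the library in which their ratio was smaller. Without the shared cells this smaller ratio ran from 3.47 (Vcam1) to 6.65 (Gdpd2) over the 15 highest genes and from -8.55 (Thbs4) to -3.54 (Prg4) over the 15 lowest. All of these genes kept their direction under every alternative run, with Il1rn at 1.88 when members needed 2% of Cxcl12.

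Several of the most member-enriched genes encode secreted proteins. Hp, which encodes the hemoglobin-binding protein haptoglobin, stood at 4824 CPM in control members and 5589 CPM in STAT5 KO members, against 9.49 and 26.4 CPM in other stromal cells. Adipoq, the fat-cell hormone adiponectin, stood at 1609 and 1393 CPM against 4.31 and 7.77 CPM. Gdpd2, a glycerophosphodiester phosphodiesterase, stood at 1679 and 1555 CPM against 6.90 and 10.9 CPM. These 3 genes had log2(CPM + 10) ratios of 6.23 to 7.95 over the 2 libraries. Their transcripts were spread over the members: before thinning, Gdpd2 was found in 99.0% of control and 96.1% of STAT5 KO members, Hp in 96.0% and 96.1%, and Adipoq in 87.9% and 86.3%.

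Kng1 and Kng2, which encode kininogens, the precursors of bradykinin, stood at 581 and 638 CPM in control members and at 785 and 683 CPM in STAT5 KO members. Other stromal cells held Kng1 at 0 UMIs (control) and 1.55 CPM (STAT5 KO), and 1.73 and 7.77 CPM of Kng2. With the 3-UMI floor over the 323 control cells, Kng1 was at least 224-fold higher in control members. Esm1, a proteoglycan known from endothelial cells, stood at 1166 and 1313 CPM against 0 and 14.0 CPM. It was 450-fold higher in control members against the same floor, with a lower limit of 8.51 for its log2 ratio. Trf, the iron carrier transferrin, stood at 1904 and 2270 CPM against 46.6 and 48.2 CPM. Agt, which encodes angiotensinogen, stood at 716 and 624 CPM against 10.4 and 23.3 CPM. Serpina3g and Serpina12, members of the serpin family of protease inhibitors, stood at 315 and 200 CPM in control members and 323 and 183 CPM in STAT5 KO members, with Serpina12 at 0 UMIs in other stromal cells of both libraries.

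Further genes named by the same order encode modulators of growth factors and cytokines. Grem1, a secreted BMP antagonist, stood at 483 CPM in control members and 785 CPM in STAT5 KO members against 5.18 and 12.4 CPM. Pappa, a protease that frees IGF from its binding proteins, stood at 671 and 839 CPM against 12.1 and 9.32 CPM. Il1rn, the antagonist of the interleukin 1 receptor, stood at 325 and 371 CPM against 1.73 and 0 CPM. Each was higher in members in both libraries by at least 4.84 on the log2(CPM + 10) scale.

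At the other end of the order stood Gsn and several genes of extracellular matrix proteins. Gsn, which encodes the actin-severing protein gelsolin, stood at 128 and 86.1 CPM in members against 19880 and 18282 CPM in other stromal cells. Fmod, the collagen-binding proteoglycan fibromodulin, had 10 UMIs in control members and 3 in STAT5 KO members, against 4151 and 4165 CPM. Prg4, the joint lubricant lubricin, stood at 30.0 and 26.9 CPM against 2954 and 6804 CPM. Thbs4, a thrombospondin of tendon, had 3 UMIs in control members and 2 in STAT5 KO members, and Igfbp6, an IGF-binding protein, had 4 and 2. Dpt, Tnxb and Cilp2, all genes of extracellular matrix proteins, had 0 UMIs in members of both libraries. Set against the 3-UMI floor over all members, Dpt was 86.3-fold lower in control and 31.3-fold lower in STAT5 KO as a point estimate. Chad, Cilp, Cytl1, Myoc, Meg3, Aspn and Nbl1 had 0 to 3 UMIs in members of either library, against 671 to 2633 CPM in other stromal cells.

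**Figure D2:**
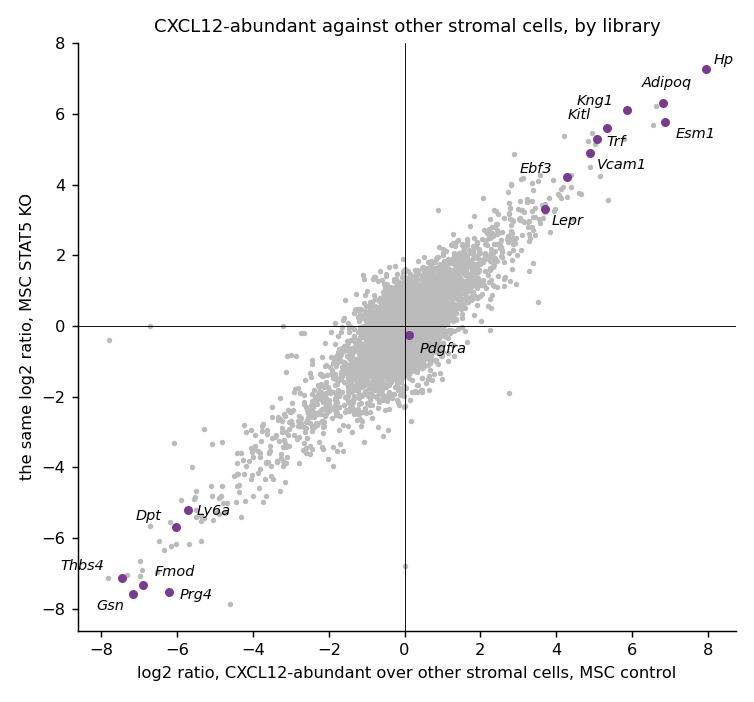
Each grey point is 1 of 6514 genes; the axes give its log2(CPM + 10) ratio of members to other stromal cells in control (horizontal) and MSC STAT5 KO (vertical). Hp (7.95 and 7.26) lies at the top right, Gsn (-7.18 and -7.57) and Thbs4 (-7.47 and -7.12) at the bottom left, and Pdgfra (0.11 and -0.24) near the origin.

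By list, 12 of 14 measured adipogenic reticular genes were at least 2-fold higher in members in both libraries and 0 were lower, with a median log2 ratio of 3.53 in control and 3.57 in STAT5 KO, against 0.03 and 0.01 over all 6514 genes. Beside the counts of this paragraph, 7.09% of all 6514 genes were at least 2-fold higher in both libraries and 7.75% at least 2-fold lower. Niche factors, Cxcl12 left out, had 11 of 21 higher and 2 lower. Interferon-stimulated genes had 10 of 20 higher and 0 lower, with H2-D1, a heavy chain of MHC class I, at 5595 and 4637 CPM against 723 and 809 CPM. Inflammatory chemokines and cytokines had 8 of 14 higher and 2 lower. Osteogenic genes were divided, with 7 of 19 higher and 7 lower. Matrix genes had 2 of 30 higher and 17 lower, with Dcn, the proteoglycan decorin, at 413 and 715 CPM against 19841 and 21713 CPM.

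Several niche and bone genes showed where the osteogenic list divided. Ibsp, the bone sialoprotein gene, stood at 4101 CPM in control members and 2324 CPM in STAT5 KO members, against 410 and 783 CPM in other stromal cells. Tnfsf11, the osteoclast-forming cytokine RANKL, stood at 75.1 and 118 CPM against 0 and 3.11 CPM. Col1a1, the main collagen of bone, stood at 483 and 360 CPM against 10213 and 9631 CPM. Il7, the cytokine of B cell precursors, stood at 75.1 CPM (30 UMIs) and 75.3 CPM (14 UMIs) against 1.73 and 1.55 CPM. Cdh2, which encodes N-cadherin, stood at 363 and 280 CPM against 19.8 and 24.9 CPM.

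Between genotypes, most genes of the members lay within 2-fold. Of 1991 genes with at least 50 UMIs over the 150 members, 11 were at least 2-fold higher in STAT5 KO (0.552%) and 24 at least 2-fold lower (1.21%), together 35 (1.76%), on the log2(CPM + 10) scale. The median log2 ratio was -0.01, and the 10th and 90th percentiles were -0.53 and 0.46. With a minimum of 20 UMIs, used for the gene lists, 83 of 4812 genes were at least 2-fold higher (1.72%) and 159 lower (3.3%), and 51.8% of genes had a ratio under 1 and 48.2% over 1. Leaving out the shared cells gave 13 higher and 40 lower genes, of which 0 and 3 were among the 11 and the 24. The minimum of 50 UMIs was applied again to these fewer cells, so a gene could drop out whatever its ratio. Without the shared cells Nr1d1 was at 1.56 and Smo at -1.73, in their earlier direction, while Gm36266 was at -0.92 and Psmb6 at 0.68. In that setting the median of all genes was -0.13, at 44 cells against 12.

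The genes named by the rule were mostly low in count, and several rested on few cells. Adamts5, an aggrecan-cleaving protease, stood at 120 CPM in control members and 312 CPM in STAT5 KO members, the higher level being in STAT5 KO. On the log2(CPM + 10) scale, leaving out the shared cells gave Adamts5 a ratio of -0.81. Nr1d1, the clock repressor REV-ERBα, stood at 52.6 and 167 CPM. Gtf3c2, a subunit of the RNA polymerase III factor TFIIIC, stood at 55.1 and 178 CPM, and its log2 ratio in other stromal cells was 1.13 (0.57 to 1.69). Sema6d, a semaphorin, stood at 113 and 237 CPM, with a log2(CPM + 10) ratio of 1.01, and 1.77 without the shared cells. Sned1, a matrix protein gene, stood at 158 and 328 CPM.

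F830016B08Rik had 20 UMIs in control and 36 in STAT5 KO, found in 17.2% and 37.3% of members before thinning and in other stromal cells at 0.86 and 12.4 CPM. Its log2(CPM + 10) ratio was 1.76, and 1.06 without the shared cells. Carmn and Gm26802 are annotated as lincRNAs. Carmn stood at 57.6 and 161 CPM, and Gm26802 at 118 and 258 CPM. Gm36266, annotated antisense on chromosome 5 (137612852 to 137615247, plus strand), had 31 and 70 UMIs, but 1 cell held 83.9% of them in control and 1 cell held 50% in STAT5 KO. Its UMIs were found in 4.04% and 13.7% of members, and reads of an overlapping gene cannot be told apart where the counting rule for strand is not given. Its log2(CPM + 10) ratio was 2.14, and -0.92 without the shared cells.

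Among the lower genes Smo, the signal transducer of the Hedgehog pathway, stood at 133 CPM (53 UMIs) in control members and 26.9 CPM (5 UMIs) in STAT5 KO. It was found in 21.1% of thinned control members and 10.4% of thinned STAT5 KO members, and in 11.2% and 12.2% of thinned other stromal cells. Its unthinned shares were 32.3% and 9.80% of members and 19.8% and 16.9% of other stromal cells. Crtap, which encodes a partner of collagen prolyl 3-hydroxylase, stood at 235 and 75.3 CPM. It was found in 42.2% (31.9 to 53.1%) and 14.6% (6.07 to 27.8%) of thinned members, and in 23.8% and 26.4% of thinned other stromal cells; unthinned shares were 56.6% and 27.5% of members and 33.1% and 36.4% of other stromal cells. Crtap UMIs were spread widely, with 7.45% and 7.14% of them in the top cell. The log2 ratio of CPM was -1.64 for Crtap (-2.57 to -0.83) and -2.30 for Smo (-3.98 to -0.99).

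Cxcl9, an interferon-induced chemokine, stood at 443 CPM in control members (380 to 513) and 145 CPM in STAT5 KO (95.7 to 211), the lower level being in STAT5 KO. The share of thinned members with a Cxcl9 UMI was 16.7% in control and 20.8% in STAT5 KO, the other order, and 1 control cell held 34.5% of the control UMIs. Unthinned, the shares were 28.3% and 21.6%; in other stromal cells they were 0.31% and 1.03%. A2m, the protease inhibitor alpha-2-macroglobulin, stood at 145 and 53.8 CPM, and Ncam1, a neural cell adhesion molecule, at 118 and 37.7 CPM. Ube2k, a ubiquitin-conjugating enzyme, stood at 165 and 59.2 CPM, and Prdm2, a zinc-finger methyltransferase gene, at 125 and 48.4 CPM. Besides Cxcl9, a large part of the control UMIs came from 1 control cell for Vps53 (81.1%), Psmb6 (46.3%), Smo (32.1%), Ccnb1ip1 (29.0%) and Ncam1 (27.7%). Vps53, Psmb6 and Ccnb1ip1 stood at 133, 238 and 233 CPM in control members and at 26.9, 91.4 and 69.9 CPM in STAT5 KO. Psmb6 had a log2(CPM + 10) ratio of -1.29, and 0.68 without the shared cells. Ccnb1ip1 had a ratio of -1.60, and 0.0053 when members needed only 0.5% of Cxcl12. Leaving out the shared cells moved Vps53 from -1.95 to -5.29, Prdm2 from -1.21 to -2.61, A2m from -1.28 to -1.88 and Ncam1 from -1.42 to -0.82, all still lower in STAT5 KO.

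**Figure D3:**
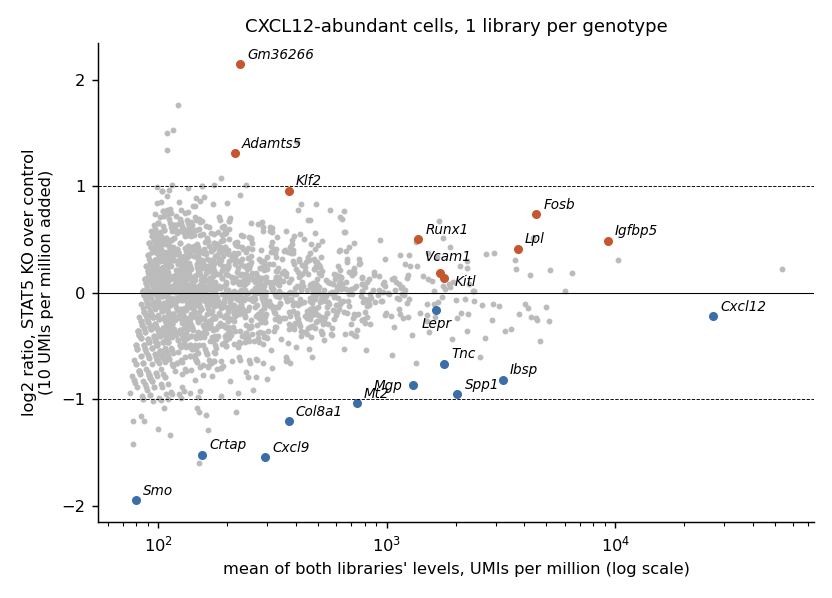
Each grey point is 1 of 1991 genes with at least 50 UMIs over the members; the horizontal log axis is the mean CPM of the 2 libraries, the vertical axis the log2(CPM + 10) ratio of STAT5 KO to control, and dashed lines mark a 2-fold difference. Named genes above 0 are orange and below 0 blue; Gm36266 is highest at 2.14, Smo is lowest at -1.95 together with Vps53 (not labelled), and Kitl (0.13), Vcam1 (0.18) and Lepr (-0.17) lie near 0.

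The ratios of the niche factors between genotypes centred near 0 in members. Over 19 measured genes, Cxcl12 left out, 11 were lower and 8 higher in STAT5 KO. The median log2 ratio was -0.05 against -0.02 over all 4812 genes, and -0.18 without the shared cells. The summed UMIs of the list, in which abundant genes weigh most, were lower in STAT5 KO. Their log2 ratio of CPM was -0.21 (-0.29 to -0.13), Cxcl12 left out. Here and in the lists below, counts of lower and higher genes stand beside 51.8% and 48.2% over all 4812 genes. Cxcl12, used by the rule, stood at 28913 CPM in control members and 24776 CPM in STAT5 KO. Kitl had a log2 ratio of 0.13 (-0.06 to 0.32), Csf1, the macrophage growth factor, of -0.04 (-0.38 to 0.29), Il7 of 0.00 (-1.02 to 0.96) and Gas6, the ligand of TAM receptors, of -0.07 (-0.25 to 0.11). Angpt1, the ligand of the receptor TIE2, stood at 168 and 210 CPM. Il34, a further ligand of the CSF1 receptor, stood at 305 and 194 CPM, with a log2 ratio of -0.66 (-1.24 to -0.11). The single factor at least 2-fold higher was Ptn, the growth factor pleiotrophin, with 7 and 19 UMIs, of which 1 STAT5 KO cell held 63.2%. Leaving out the shared cells put Vcam1 at -0.34, Gas6 at 0.48, Csf1 at -0.60 and Il34 at -1.45 on the log2(CPM + 10) scale.

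Transcription factors of reticular cells were mostly higher in STAT5 KO. Of 18 measured, 16 were higher and 2 lower, with a median log2 ratio of 0.32 against -0.02 over all genes, 0 of them by 2-fold, and 0.05 for the same genes in other stromal cells. Runx1 stood at 1136 CPM in control members (1034 to 1245) and 1614 CPM in STAT5 KO (1436 to 1807), and Cebpb, a factor of early fat-cell and inflammatory programmes, at 1116 and 1560 CPM. Ebf3 stood at 1006 and 1286 CPM, and Foxc1 at 596 and 742 CPM. The log2 ratio was 0.51 for Runx1 (0.29 to 0.72), 0.48 for Cebpb (0.26 to 0.70) and 0.35 for Ebf3 (0.12 to 0.59). Prrx1, a limb mesenchyme factor, and Cebpa, a fat-cell factor, were the lower ones, at 258 and 221 CPM and at 350 and 317 CPM. Without the shared cells the median was 0.23, with Runx1 at 0.35, Ebf3 at 0.00 and Cebpb at -0.04 on the log2(CPM + 10) scale.

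Osteogenic genes were mostly lower in STAT5 KO members, 12 of 15 against 51.8% of all 4812 genes. Their median was -0.24 in members, -0.12 in members without the shared cells, and 0.29 in other stromal cells. Spp1, osteopontin, stood at 2692 CPM in control members (2534 to 2858) and 1382 CPM in STAT5 KO (1219 to 1562), and Ibsp at 4101 and 2324 CPM. Their log2 ratios were -0.96 (-1.16 to -0.76) and -0.82 (-0.98 to -0.67). Spp1 was found in 73.3% and 54.2% of thinned members and in 6.15% and 12.8% of thinned other stromal cells (unthinned 77.8% and 60.8%, and 10.2% and 15.9%). The 5 other stromal cells with most Spp1 held 80.4% of that group's Spp1 UMIs in STAT5 KO and 72.1% in MSC control. Alpl, the alkaline phosphatase of bone-forming cells, stood at 185 and 91.4 CPM, and Wif1, a WNT inhibitor of osteoblasts, at 298 and 151 CPM. Mmp13, a collagenase of bone remodelling, went the other way at 473 and 780 CPM, with 38.6% of its STAT5 KO UMIs in 1 cell, a log2(CPM + 10) ratio of 0.71, and 3.64 without the shared cells. With the shared cells left out, Spp1 had a log2(CPM + 10) ratio of -0.45, Ibsp of -1.39, Alpl of 0.18 and Wif1 of 0.19.

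Adipogenic reticular genes gave no common direction, with 9 of 15 lower, 6 higher and a median of -0.14. Among all 4812 genes 51.8% were lower. Lpl, lipoprotein lipase, stood at 3203 CPM in control members and 4266 CPM in STAT5 KO, and Hp at 4824 and 5589 CPM. Apoe, a lipid carrier, stood at 4879 and 4137 CPM, and Adipoq at 1609 and 1393 CPM. The largest difference was in Fabp4, a fatty-acid carrier, at 48 and 9 UMIs, with 54.2% and 55.6% of them in 1 cell of each library. Dropping the shared cells put Hp at -0.85 and Adipoq at -0.80 on the log2(CPM + 10) scale, Lpl at 0.26, Fabp4 at 0.00 and the list median at -0.24. With members at 2% of Cxcl12 or more, Fabp4 was at 1.25 and the list median at 0.053.

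Of 27 matrix genes measured, 21 were lower and 6 higher in STAT5 KO members, against 51.8% lower among all 4812 genes. The median was -0.31, and -0.14 for the same genes in other stromal cells. Tnc, tenascin C, stood at 2194 CPM in control members and 1377 CPM in STAT5 KO, and Mgp, an inhibitor of calcification, at 1692 and 925 CPM. Bgn, biglycan, stood at 3090 and 2297 CPM, and Col8a1, a short-chain collagen, at 523 and 221 CPM. Dcn ran against the list at 413 and 715 CPM. The log2 ratio was -0.67 for Tnc (-0.88 to -0.47), -0.87 for Mgp (-1.12 to -0.63), -1.25 for Col8a1 (-1.77 to -0.76) and 0.79 for Dcn (0.45 to 1.13). Without the shared cells the list median was -0.38, Mgp was at -1.85, Bgn at -0.60, Tnc at 0.13 and Col8a1 at 0.25 on the log2(CPM + 10) scale.

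The binding proteins of IGF, which hold or present this growth factor, differed in direction within the members. Igfbp5 stood at 7709 CPM in control members (7440 to 7986) and 10807 CPM in STAT5 KO (10339 to 11290), the higher level being in STAT5 KO. Igfbp4 stood at 5402 and 3948 CPM, and Igfbp7 at 2219 and 1635 CPM, both lower in STAT5 KO. The log2 ratios were 0.49 (0.41 to 0.57), -0.45 (-0.58 to -0.33) and -0.44 (-0.63 to -0.25). These 3 directions held without the shared cells, at 0.65, -0.17 and -0.87. Over the 7 measured genes of the IGF system the median was -0.32, and -0.17 without the shared cells. The summed UMIs of the list went the other way, with a log2 ratio of CPM of 0.085 (0.023 to 0.147). Igf1 itself stood at 285 and 226 CPM. Of 10 BMP and WNT modulators, 5 were lower and 5 higher, with a median of -0.04, and 0.26 without the shared cells. Grem1 was found in 46.7% (36.1 to 57.5%) of thinned control and 72.9% (58.2 to 84.7%) of thinned STAT5 KO members, against 0.77% and 1.35% of thinned other stromal cells; unthinned, the shares were 53.5% and 72.5% of members and 0.93% and 1.54% of other stromal cells. Its log2 ratio was 0.70 (0.38 to 1.02), and 1.60 on the log2(CPM + 10) scale without the shared cells.

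Interferon-stimulated genes were lower in STAT5 KO members for 21 of 23 measured genes, with a median of -0.36 against -0.02 over all genes and 0.11 for the same genes in other stromal cells. B2m, the light chain of MHC class I, stood at 3698 CPM in control members (3512 to 3892) and 2883 CPM in STAT5 KO (2644 to 3138). H2-K1 stood at 4632 and 3954 CPM, and H2-D1 at 5595 and 4637 CPM. Tap2, a subunit of the peptide transporter that loads MHC class I, stood at 140 and 64.5 CPM, and Bst2, a virus-restricting surface protein, at 443 and 280 CPM. The exceptions were Iigp1, at 460 and 490 CPM, and Tapbp, at 240 and 264 CPM. Without the shared cells the list median was -0.04, with B2m at -0.07, H2-K1 and H2-D1 at 0.05, Tap2 at -0.63 and Bst2 at -0.41 on the log2(CPM + 10) scale.

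Inflammatory chemokines and cytokines had a median of -0.35 in members, 10 of 13 being lower, and a median of -0.36 in other stromal cells. Cxcl14 stood at 2525 CPM in control members and 1963 CPM in STAT5 KO, Cxcl10 at 448 and 285 CPM, and Ccl19, a ligand of CCR7, at 165 and 80.7 CPM. Ccl2, a chemokine for monocytes, stood at 846 and 807 CPM. Without the shared cells the list median was -1.42, with Cxcl14 at -1.31, Cxcl10 at -1.84, Ccl19 at -4.53 and Ccl2 at -0.77 on the log2(CPM + 10) scale. Ccl2 was at 0.095 with the mean CPM of single cells. In the same direction, 8 of 11 metallothionein and oxidative stress genes were lower, with a median of -0.34 and -0.13 in other stromal cells. Mt2, a metal-binding protein, stood at 996 CPM (900 to 1099) and 479 CPM (384 to 589), and Mt1 at 1651 and 1038 CPM. Their log2 ratios were -1.06 (-1.40 to -0.72) and -0.67 (-0.91 to -0.44). Both were lower without the shared cells too, at -2.37 and -2.89 on the log2(CPM + 10) scale, with the list median at -0.64. Complement genes had 7 of 9 lower and a median of -0.11, which was -1.08 without the shared cells. Adhesion and surface genes had 10 of 15 lower and a median of -0.17, and -0.26 without the shared cells. Beside these counts, 51.8% of all 4812 genes were lower.

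Immediate early genes, which respond within minutes to stimuli and to tissue handling, were higher in STAT5 KO members for 18 of 21, with a median of 0.17; the median was also 0.17 in other stromal cells, and 0.23 in members without the shared cells. Fosb stood at 3391 CPM in control members and 5648 CPM in STAT5 KO, Jun at 3616 and 5159 CPM, Fos at 9168 and 11366 CPM, and Klf2, a factor known from flow-sensing endothelium, at 250 and 495 CPM. Klf2 had a log2(CPM + 10) ratio of 0.96, and 1.74 without the shared cells. Heat-shock chaperones had a median of 0.05 (0.09 without the shared cells, and -0.06 without the deepest member of each library), with 7 of 13 higher, and Hsp90aa1 at 1456 and 2076 CPM. Whether handling of the libraries has a part in these differences was not tested.

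The Stat5 transcripts themselves were low in members. Stat5a had 45 and 32 UMIs and Stat5b 42 and 20 in control and STAT5 KO, a sum of 218 and 280 CPM. The log2 ratio of the sum was 0.36 (-0.16 to 0.87), and -0.61 without the shared cells. The labels do not give the floxed exons, and 3′ tags outside a deleted part check nothing about deletion. Of 11 measured STAT5 genes and targets, 5 were lower and 6 higher, with a median of 0.03, and -0.13 without the shared cells. Pim1, a kinase gene induced by STAT factors, stood at 525 and 785 CPM, Socs3, a feedback inhibitor of cytokine receptors, at 966 and 1006 CPM, and Socs2, a feedback inhibitor of growth hormone signals, at 43 and 13 UMIs. Of 13 receptors, kinases and STATs, 6 were lower and 7 higher, with a median of 0.10, and -0.09 without the shared cells. Stat3 stood at 288 and 436 CPM, with a log2 ratio of 0.60 (0.17 to 1.02), and Ghr, the growth hormone receptor, at 330 and 430 CPM. Of 20 cell cycle genes only 6 reached 20 UMIs, namely Pcna, Cdkn1a, Cdkn1b, Cdkn1c, Ccnd2 and Ccnd3, with a median of -0.22, which was 0.036 with no more than 1 UMI asked of a gene.

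**Figure D4:**
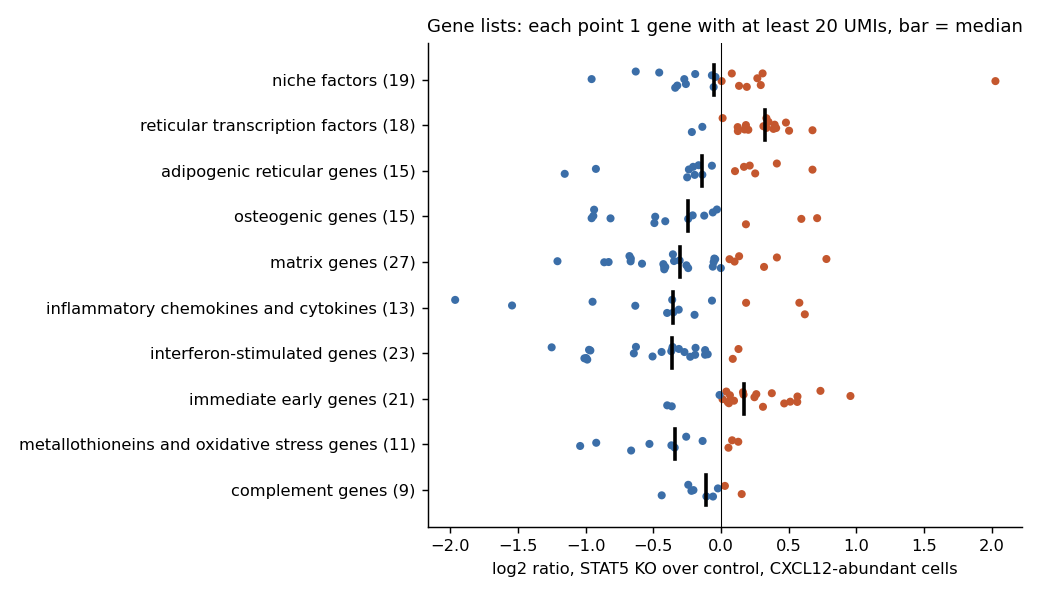
Each point is 1 gene of a list with at least 20 UMIs over the members, placed by its log2(CPM + 10) ratio of STAT5 KO to control (orange above 0, blue below), with the number of genes in brackets and the black bar at the median. The bar of the transcription factors is at 0.32, and the bars of matrix, interferon-stimulated and inflammatory genes are at -0.31, -0.36 and -0.35.

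Members also differed from one another within a library. The 5 most abundant genes outside mitochondrial genes and genes of ribosomal proteins were Malat1, Cxcl12, Fos, Igfbp5 and Gm42418. Variance between cells was set against that expected from counting alone, for 555 genes with at least 50 UMIs in each library, whose median ratio was 1.80 in control and 1.74 in STAT5 KO. Igfbp5 varied at 35.6 and 61.4 times the counting variance, Spp1 at 20.8 and 14.4, Ccl2 at 26.5 and 13.7, and Hp at 12.5 and 14.0. Kitl varied at 1.81 and 1.75 times, Foxc1 at 1.80 and 1.72, and Esm1 at 2.28 and 1.85. By this measure Kitl and Foxc1 varied about as much as the median gene, and Igfbp5, Spp1, Ccl2 and Hp several times more. The measure also rises with a gene's level when cells differ by the same proportion. Igfbp5 had 3081 and 2009 UMIs and Hp 1928 and 1039, above Kitl at 676 and 345. Ccl2, at 338 and 150 UMIs, was below Kitl.

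Summed by cell, the adipogenic list took 0.397 to 4.74% of UMIs in control members (median 2.20%) and 0.746 to 5.98% in STAT5 KO members (median 2.36%). The osteogenic list took 0.205 to 6.03% (median 1.24%) and 0.510 to 3.83% (median 0.933%). Within a library these shares had a Pearson r of -0.18 over 99 control cells and -0.11 over 51 STAT5 KO cells, and a Spearman rho of 0.03 and 0.03. With the Cxcl12 share, the adipogenic share had an r of 0.39 and 0.45 and a rho of 0.35 and 0.40. The osteogenic share had an r of 0.20 and 0.05 and a rho of 0.38 and 0.21 with the Cxcl12 share. The rule cut the Cxcl12 share at 1%. Cells of 1 library share their preparation and sequencing, and shares of 1 cell share its total, so these values are a description. The interferon-stimulated list had a median of 1.81% in control and 1.58% in STAT5 KO, with 1 control cell at 7.94%. The immediate early list spread most, from 0 to 11.6% and from 0 to 10.3%, with medians of 3.11% and 3.69%.

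**Figure D5:**
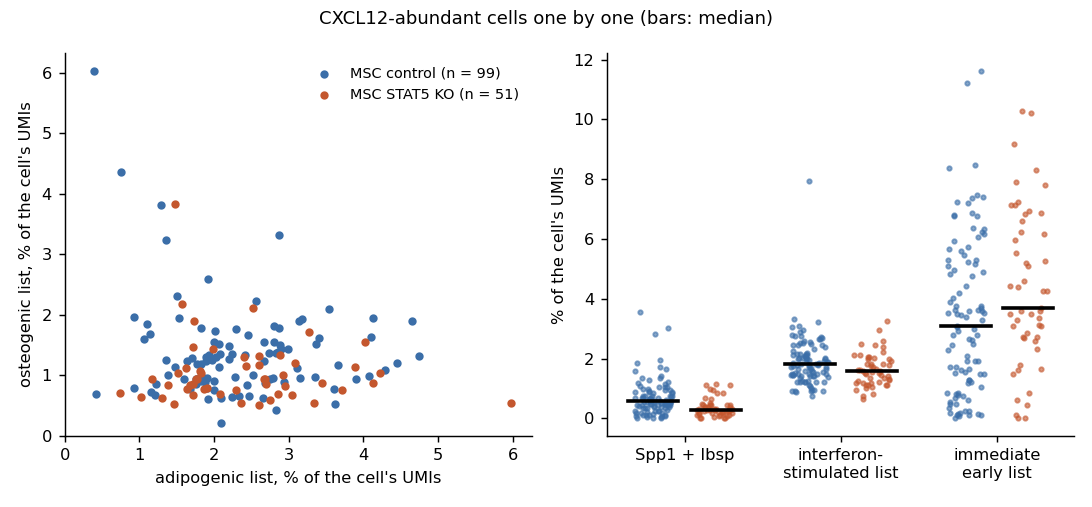
Each point is 1 member, blue for MSC control and orange for MSC STAT5 KO; the left panel sets the adipogenic against the osteogenic list, and the right panel shows 3 further sums with medians as black bars, all as percent of the cell's UMIs. The medians of Spp1 plus Ibsp are 0.590% and 0.292%, and single control cells reach 6.03% for the osteogenic list and 7.94% for the interferon-stimulated list.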

How the data were processed

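The authors deposited raw UMI counts per gene and cell barcode, made with Cell Ranger (3.1.0 per the file headers) on GRCm38 (mm10), per the submitters' processing notes; cell calling and the strand rule are not given in the sources used here. Of 31053 gene identifiers 31011 were in GENCODE M21, used for coordinates. Counts of the 99 and 51 members were summed per library and scaled to CPM. Log2 ratios given with an interval are of CPM itself, and counts of genes, list medians and values without shared cells use log2(CPM + 10). Intervals are exact (Poisson, Clopper-Pearson, or binomial for a ratio), and cover counting error only. The UMI minimum was 50 over both libraries for counts of genes and 20 for lists. Genes named between genotypes were the 10 highest and 10 lowest with a UMI in at least 10% of cells of the higher library, and between members and other cells the 15 highest and 15 lowest; list genes named were chosen after their values were seen, as were the variance, per-cell and thinning measures. Some genes that this rule or a list holds are not reported here. Cxcl12, Col2a1, Xist and the hemoglobin, immunoglobulin, mitochondrial and Y-linked genes were left out of these rankings. The members and lists were chosen with earlier results of these data known. Doublet scores came from Scrublet in scanpy 1.11.5, which left out 4 and 1 barcodes in an alternative, 0 of them members, and no doublet was removed otherwise. Other alternatives used edgeR 4.0.16 scaling factors, Python 3.11.15 and R 4.3.3. Ratio intervals were tried only on simulated counts that varied by counting alone, the model behind the intervals. Such counts cannot show how the intervals fare with these cells. Their median variance was 1.80 (control) and 1.74 (STAT5 KO) times the counting variance. No free RNA was subtracted.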

Additional observations from a re-analysis of the deposited data

Results flagged for a closer look

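For 7 genes the members and the other stromal cells of the same libraries differed in direction between genotypes, with counting intervals on opposite sides of 0; with 1 library per genotype the difference was not tested. The log2 ratios of CPM, STAT5 KO over control, were -0.96 in members and 3.71 in other stromal cells for Spp1, -0.82 and 0.93 for Ibsp, -0.87 and 0.41 for Mgp, -0.67 and 0.98 for Tnc, 0.41 and -0.68 for Lpl, and -0.27 and 0.16 for H2-D1. For Cxcl12 they were -0.22 and 0.66, a pair bounded by the 1% rule on both sides. The 5 highest other stromal cells of MSC STAT5 KO held 80.4% of Spp1, 80.8% of Ibsp, 47.4% of Mgp and 47.0% of Tnc UMIs in that group, and those of MSC control held 72.1%, 65.5%, 39.2% and 37.2%. For Lpl, H2-D1 and Cxcl12 the 5 highest cells held 8.83 to 35.7% in either library.

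The KLS libraries, which the comparisons here do not use, held barcodes with member-like Cxcl12 shares. There were 92 such barcodes in KLS control (2.46% of its barcodes) and 59 in KLS STAT5 KO (0.786%). All 92 and all 59 carried the barcode of a member in an MSC library, at a median of 674.5 and 625 UMIs against 13091 and 9698 over all barcodes of those libraries.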

How the results depend on the processing

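No paired analysis was possible because each genotype has 1 stromal library. With no replicate to leave out, alternatives changed the cells, the scaling or the minimum. Each value follows as control and STAT5 KO, or as higher and lower. The share of members was 25.5% and 22.1% with at least 1000 genes, within its interval, and moved to 17.5% and 13.7% with at least 200 genes, 18.5% and 13.5% with Cxcl12 at 2%, and 18.03% and 12.8% without any shared barcode. The genes 2-fold higher and lower in STAT5 KO numbered 18 and 38 with a pseudocount of 1 CPM, 6 and 7 with 50 CPM, 83 and 159 at 20 UMIs, 4 and 9 at 100 UMIs, and 594 and 773 at 1 UMI; with the mean CPM of single cells 20 were higher, and without any shared barcode 40 were lower. The genes separating members from other stromal cells numbered 249 and 241 with 50 CPM, and 187 and 307 without shared barcodes. The niche median was -0.20 without barcodes shared between MSC libraries, -0.15 at 1 UMI and -0.18 without any shared barcode, where the Stat5 sum was -0.61. Of the ratios and list medians whose interval excluded 0, 16 values turned direction or reached 0. For a list median, this interval took its width from the counting interval of the list's summed UMIs and was centred on the median. It is thus not a counting interval of the median. The adipogenic sum had a log2 ratio of 0.056 (0.0050 to 0.107), while the list median was -0.14. With Cxcl12 at 0.5%, Ccnb1ip1 was at 0.0053, and at 2% Fabp4 was at 1.25 and the adipogenic median at 0.053. Without any shared barcode (44 and 12 cells, chosen as an alternative after seeing the data), Gm36266 was at -0.92, Adamts5 at -0.81, Psmb6 at 0.68, Cebpb at -0.042, Hp at -0.85, Trf at -0.35, Fabp4 at 0.00, Alpl at 0.18, Wif1 at 0.19, Col8a1 at 0.25, Tnc at 0.13, H2-K1 at 0.053 and H2-D1 at 0.049. That setting dropped 55 of 99 control and 39 of 51 STAT5 KO members, and the members dropped were deeper at the median than all members. Whether fewer cells, their depth or a cause beyond these acts was not tested. A further 22 values changed sign, over 12 sums, genes and list medians whose interval held 0. They belong to the Stat5 sum, Vcam1, Csf1, Vegfa, Gas6, Bmp4, Ccl2 and the lists of BMP and WNT modulators, STAT5 genes and targets, receptors and kinases, heat-shock chaperones and cell cycle genes. The remaining ratios and medians kept their sign under the alternatives run, 2148 values within their spread (counting, or 0.5 for ratios to other stromal cells) and 183 outside it. At 51 cells, genes under about 50 UMIs were not resolved to 2-fold.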
